A study of Mus musculus with 6 samples.

Results

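The 84 genes described here encode proteins of the cytoplasmic ribosome in mouse or paralogues of them. They were chosen by symbol alone: Rpl or Rps followed by a number, with or without one of the suffixes a, x, l, l1 or al, together with Rplp0, Rplp1, Rplp2 and Rpsa. The count tables hold 34199 gene symbols in all. Of the 84 members, 52 were assigned by symbol to the large (60S) subunit, its stalk included, and 32 to the small (40S) subunit. A filter on low counts kept 12460 genes, among them 82 members (50 of the 60S and 32 of the 40S subunit). The remaining members, Rpl10l and Rpl39l, had 0 counts in each of the 6 libraries. In the shallowest library a count of 0 allows a level of up to 0.179 CPM (counts scaled to a library of 1000000), an upper limit that covers counting error only. Pdcd2 and Snhg3, which many cell types express, were also listed at 0 in all 6 libraries, so whether such a 0 comes from the cells or from the annotation and counting was not tested.

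The libraries were bulk RNA-seq of iGMPs, granulocyte-macrophage progenitors from C57Bl/6 bone marrow that a HOXA9 transcription factor keeps in a self-renewing state. In these cells HOXA9 is joined to an estrogen receptor ligand-binding domain that carries the G400V mutation, and it works only in the presence of estradiol (E2), and a Lysozyme-promoter GFP cassette reports on differentiation. All 3 groups were taken at 24 h and held 2 libraries each. CAF-1 OFF cells carried an IPTG-inducible shRNA against Chaf1b, which encodes part of the CAF-1 histone chaperone, and grew with 500 µM IPTG and 150 ng/ml E2. Control cells were treated with IPTG under the same E2. HOXA9 OFF cells were deprived of E2; whether they also received IPTG, and which clone they came from, the labels do not give. The lines are clonal, so a clone's own features and its treatment cannot be told apart. The study's supplement mentions independent sub-clones for RNA-seq tracks at a later time point, but the labels do not tie these libraries to separate cultures or sub-clones. The p-values therefore measure the spread between these libraries, which may be technical.

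The libraries held 16773560 to 25170898 counts in genes. Chaf1b itself had a control level of 90.0 and 105.1 CPM. It stood at 17.8 and 12.1 CPM after shRNA induction and at 64.6 and 61.4 CPM after E2 withdrawal, so the knockdown was visible in both CAF-1 OFF libraries. Hoxa9 transcripts do not check the HOXA9 OFF label, because E2 withdrawal acts on the fusion protein: they stood at 356 and 362 CPM in HOXA9 OFF, at 277 and 214 CPM in control, and at 204 and 271 CPM in CAF-1 OFF. Of 8 progenitor markers, 7 had at least 3510 counts in every library. The other, Flt3, had 6043 and 5674 counts in control, 5108 and 4980 in CAF-1 OFF, and 104 and 57 in HOXA9 OFF. Among the 7, counts also differed: Cd34 had 10028 and 8356 in HOXA9 OFF against 45954 and 30952 in control. Ms4a3 had 15527 and 7918 against 7439 and 3510. The tests of all 8 are given with the other markers below. The T-cell genes Cd3e, Cd3g and Cd8a were at 0 in all 6.

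Ribosomal proteins clothe the ribosomal RNAs and are, apart from the stalk proteins, needed in equal amounts, and cells tend to express their genes together. The 60S subunit forms peptide bonds, and its stalk of P proteins recruits the translation factors. The 40S subunit reads the messenger RNA. Transcripts of these genes usually begin with a terminal oligopyrimidine tract (TOP), an unbroken run of C and T at the cap, through which mTOR signalling and the protein LARP1 control their translation and stability. MYC raises the transcription of many of them. Blood progenitors are known to be sensitive to their dosage: loss of a single copy of RPS19, RPL5 or RPL11 causes Diamond-Blackfan anaemia in humans, and loss of RPS14 contributes to the anaemia of the 5q- syndrome.

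The start of each transcript was read from the RefSeq promoter table (GRCm38.p6), which matched 63 of the 84 members. A run of at least 6 C or T bases lay within the 10 bases before to 20 bases after the annotated start in 55.6% of these 63 members and in 28.6% of all 27025 genes of the table. A set of 7 windows of 30 bases are shown in the direction of transcription, with the longest C or T run in capitals. The first 5 belong to the members with the lowest adjusted p-values in HOXA9 OFF against control, and Rplp0 and Rps3 are shown as abundant members.
Rpl12 (chr2:32961702-32961731, + strand): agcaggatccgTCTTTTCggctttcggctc
Rpl27 (chr11:101442235-101442264, + strand): ctgTTCCTgtctgctgctcgtgctgctaat
Rpl28 (chr7:4792955-4792984, + strand): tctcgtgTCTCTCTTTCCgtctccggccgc
Rpl15 (chr14:18270967-18270996, - strand): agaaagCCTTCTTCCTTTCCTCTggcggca
Rps2 (chr17:24720053-24720082, + strand): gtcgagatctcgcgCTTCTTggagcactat
Rplp0 (chr5:115559457-115559486, + strand): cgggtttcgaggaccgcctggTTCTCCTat
Rps3 (chr7:99483690-99483719, - strand): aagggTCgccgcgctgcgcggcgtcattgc
The longest run was 17 bases in Rpl15, 11 in Rpl28, 7 in Rpl12 and Rplp0, 6 in Rps2 and 5 in Rpl27, but 2 in Rps3. A run found near an annotated start is a description of these letters and does not show that the tract is used.

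Many ribosomal protein genes have processed copies elsewhere in the genome, which bears on how their reads are counted. A read that aligns equally well to the gene and to a copy is not unique, and such reads were left out of the gene counts. The 30 bases at the middle of the coding sequence of 8 members are shown as examples. They were taken from GENCODE vM1 transcripts on NCBIM37 (mm9), the build of the count tables, and both strands of the genome were searched for exact copies outside the gene.
Rps12 (coding bases 185 to 214): tcaagctggtggaggcactttgtgctgagc
Rps2 (coding bases 427 to 456): tgctccaaggaggttgccactgccatccga
Rpl19 (coding bases 281 to 310): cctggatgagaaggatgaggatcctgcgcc
Rpl27 (coding bases 191 to 220): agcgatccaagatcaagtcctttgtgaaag
Rpl28 (coding bases 193 to 222): aaacgcagatccggtcagcgaaaacctgcc
Rpl12 (coding bases 235 to 264): gccctgatcatcaaagccctcaaggagcca
Rpl4 (coding bases 616 to 645): gggccctgcatcatctataatgaagataat
Rps3 (coding bases 352 to 381): gcctgctatggtgtgcttcggttcattatg
The Rps12 window had 12 exact copies elsewhere, the Rps2 window 8, the Rpl19 window 7, the Rpl27 window 4, the Rpl28 window 2 and the Rpl12 window 1. The Rpl4 and Rps3 windows had 0. The most among the members was 26, in Rpl29. Over whole transcripts, the share of 50-base stretches found once in the genome was 4.06% in Rps12, 6.98% in Rpl19, 15.7% in Rpl28, 21.2% in Rpl27 and 30.3% in Rps2, against 62.9% in Rpl12, 97.04% in Rps3 and 100% in Rpl4.

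Ribosomes hold most of their proteins in equal numbers, but the counts of the members were far from equal. Per kilobase of exon, the control mean was 2797 CPM in Rpl8, 2257 in Rplp1, 1936 in Rpl4 and 1257 in Rplp0. It was 1.79 in Rps29, 1.58 in Rps13, 0.703 in Rpl23a and 0.310 in Rpl3l, the muscle paralogue of Rpl3. The 18 tested members with under 25% of single-copy stretches had a median of 14.7 CPM per kilobase, and the 23 members with 75% or more had a median of 167. Rps16, with 97.8% of single-copy stretches and a control mean of 3.01 CPM, and Rpl3, with 8.84% and 273.8 CPM, went against that order. Across the 81 tested members with a gene model, the Spearman correlation of the single-copy share with the control level per kilobase was 0.27, a description over genes that share libraries and differ in length. Apart from paralogues and their partners, each member is compared below only with itself between groups. Just 5 members, Rps3, Rpl4, Rpl8, Rplp0 and Rpl13a, held 41.5% of all counts of the 84.

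**Figure D1:**
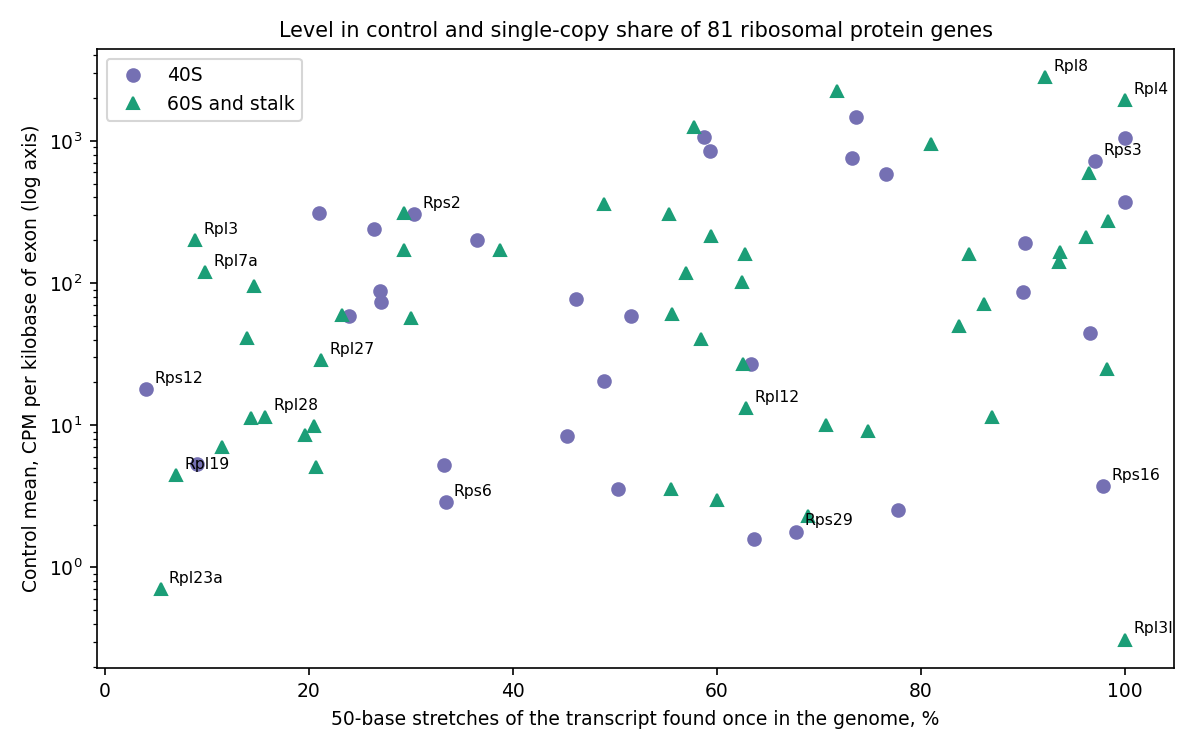
Control level of 81 ribosomal protein genes in CPM per kilobase of exon (log axis) against the percentage of 50-base stretches of the transcript that occur once in the genome; circles are 40S and triangles 60S members. Rpl4, Rpl8 and Rps3 lie at the upper right and Rpl23a at the lower left, while Rps16 and Rpl3l lie low at a high single-copy share.

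Ribosomal protein transcripts made up a smaller part of the libraries after HOXA9 withdrawal. The 84 members took 2.51% and 2.30% of all gene counts in HOXA9 OFF, against 2.91% and 3.17% in control, and both HOXA9 OFF libraries lay below both controls. In CAF-1 OFF they took 3.11% in replicate 1 and 2.56% in replicate 2, so that group spanned most of the range between the others. The mean share was 2.40% ± 0.14 in HOXA9 OFF, 2.83% ± 0.39 in CAF-1 OFF and 3.04% ± 0.18 in control (SD, n = 2). The log2 ratio of the mean share to that of control was -0.34 in HOXA9 OFF and -0.10 in CAF-1 OFF. With 2 libraries against 2, an exact two-sided permutation test cannot go below p = 0.333, so this share was not tested further. In a bulk sample, fewer cells of a kind and less of a transcript per cell cannot be told apart.

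Both subunits had a lower share. Members of the 60S subunit took 1.46% and 1.33% of gene counts in HOXA9 OFF against 1.69% and 1.81% in control, and those of the 40S subunit 1.04% and 0.973% against 1.22% and 1.36%. The ratio of 60S to 40S counts stayed between 1.33 and 1.40 in all 6 libraries, and the groups overlapped in it. Symbols of ribosomal protein pseudogenes, which are not members, took 0.0158% and 0.0150% in HOXA9 OFF against 0.0196% and 0.0198% in control. The reads set aside as not uniquely aligned moved with the share: they numbered 91.2 and 89.6 for every 100 gene reads in HOXA9 OFF, 100.0 and 106.7 in control, and 106.6 and 92.8 in CAF-1 OFF. Ordered by this tally, the 6 libraries fell in the same order as by ribosomal protein share. The part of this tally in the share was not tested.

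**Figure D2:**
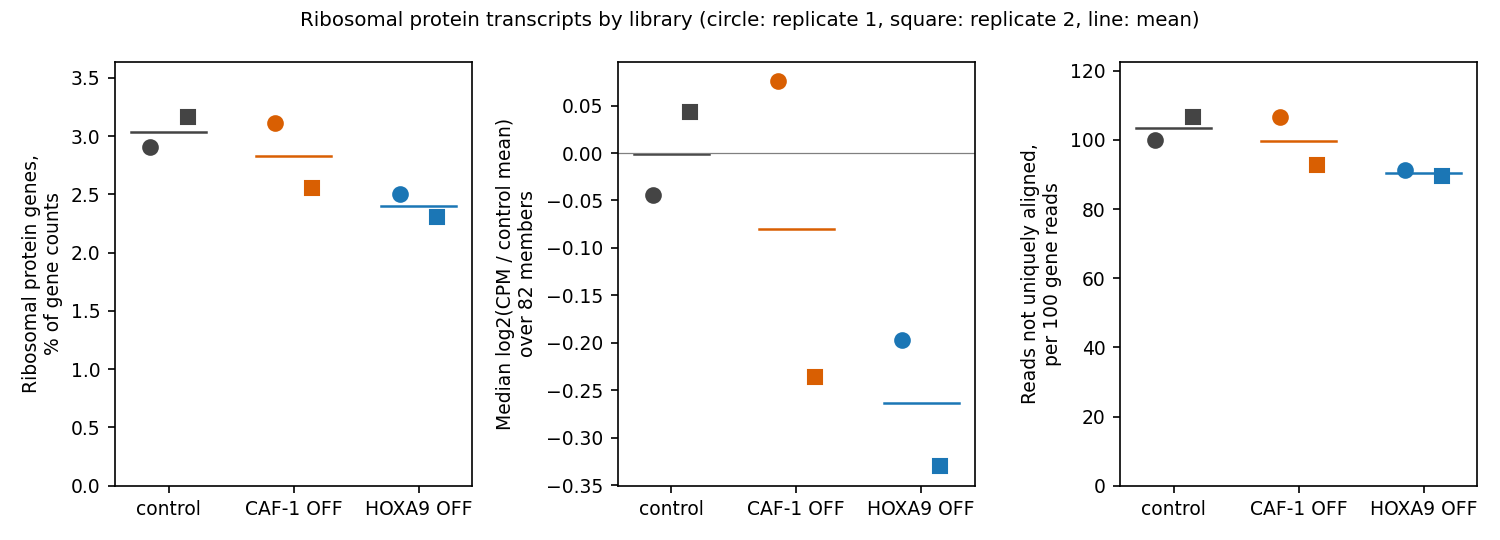
Left, percentage of gene counts in the 84 ribosomal protein genes; middle, median over the 82 tested members of log2 of the library's CPM over the control mean; right, reads not uniquely aligned per 100 gene reads. Circles are replicate 1, squares replicate 2 and lines group means. Both HOXA9 OFF libraries (median -0.20 and -0.33) lie under the control pair, whereas those of CAF-1 OFF (0.08 and -0.24) lie apart from each other.

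To find how HOXA9 inactivation affected single members, each was tested in an edgeR quasi-likelihood fit across all 12460 genes. CPM values were scaled by the TMM method. The calling rule asked for a 1.5-fold change together with an adjusted p (Benjamini-Hochberg) under 0.05. Of the 82 tested members, 78 (95.1%) had a lower fitted level in HOXA9 OFF than in control, against 50.2% of all genes. The median log2 fold change was -0.26, a level 1.2 times lower, and the lower and upper quartiles were -0.36 and -0.19. Over all genes the median was -0.00, with quartiles of -0.35 and 0.40. Only 3 members were called, all lower (3.66%), whereas 8.97% of all tested genes were called lower, 13% higher and 22% in either direction. With no minimum fold, 5 members (6.10%) had an adjusted p under 0.05, all lower, against 13.8% of all genes. At an unadjusted p under 0.05 there were 15 lower members (18.3%), and 0 higher ones, against 20.2% of all genes lower and 41.9% in either direction. In 68 of the 82 members (82.9%) both HOXA9 OFF libraries lay below both controls, a pattern seen in 35.9% of all genes, and in 2 they lay above both, against 35.1% of all genes. The share of members on the low side of control thus exceeded that of all genes, while the share of members called did not.

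The median standard error of a member's log2 fold change was 0.15, against a median change of -0.26. By level, this error was 0.30 at the median in the 17 members with a control level under 10 CPM, 0.17 in the 18 from 10 to under 100 CPM, 0.14 in the 39 from 100 to under 1000 CPM and 0.13 in the 8 at 1000 CPM or over. The median change was -0.36, -0.31, -0.22 and -0.27 in these 4 classes, and all 3 called members lay in the class from 10 to under 100 CPM. Both HOXA9 OFF libraries lay below both controls in 11, 15, 34 and 8 members of these classes, against 35.9% of all genes.

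**Figure D3:**
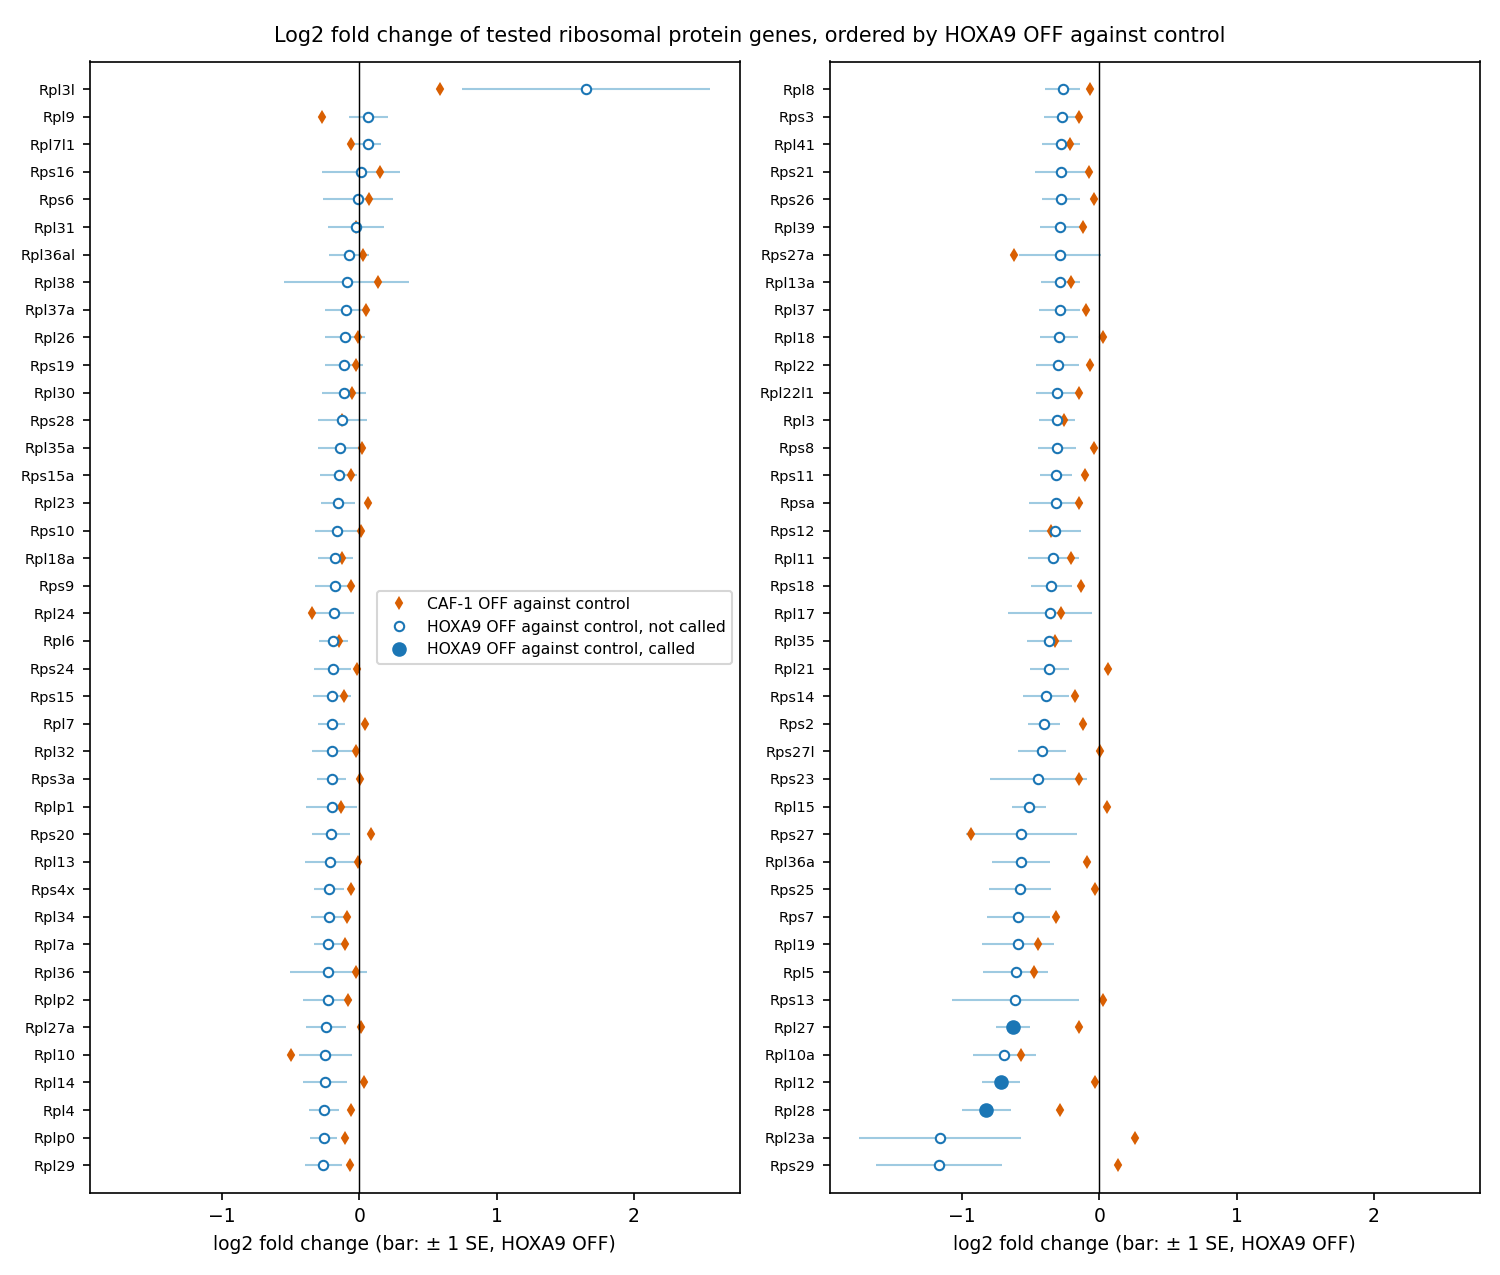
Log2 fold change of the tested members, 2 of them not shown, ordered by HOXA9 OFF against control (circles, filled where called; bars, 1 standard error) with CAF-1 OFF against control (diamonds). The quartiles over all 82 members are -0.36 and -0.19, the 3 filled circles are Rpl28, Rpl12 and Rpl27, and Rpl3l stands alone at 1.65 with a wide error.

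The 3 called members belong to the 60S subunit. Rpl12 (chr2:32817079-32820016, + strand), which lies at the base of the stalk, stood at 19.8 and 21.9 CPM in HOXA9 OFF, at 32.7 and 35.8 in control, and at 35.6 and 31.2 in CAF-1 OFF. The HOXA9 OFF libraries lay apart from all 4 others, while CAF-1 OFF and control overlapped. The log2 fold change against control was -0.72 ± 0.14 (SE) with an adjusted p of 0.00983. Rpl28 (chr7:4744476-4746164, + strand) stood at 7.67 and 7.09 CPM in HOXA9 OFF, at 13.6 and 12.6 in control, and at 11.3 and 10.1 in CAF-1 OFF. The 3 groups did not overlap, with CAF-1 OFF in between. Its log2 fold change in HOXA9 OFF was -0.82 ± 0.18 and the adjusted p 0.0155. Rpl27 (chr11:101303612-101306843, + strand) stood at 28.2 and 28.4 CPM in HOXA9 OFF, at 40.3 and 47.4 in control, and at 40.2 and 38.9 in CAF-1 OFF, with a log2 fold change of -0.63 ± 0.12 and an adjusted p of 0.0114. As shown above, Rpl27 and Rpl28 keep few single-copy stretches, so their values rest on a small part of their transcripts.

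None of these 3 calls held through all 4 refits that left out a single HOXA9 OFF or control library, while all 3 held without either CAF-1 OFF library. Rpl28 lost its call in each of the 4, with adjusted p-values from 0.0644 to 0.0868. Rpl12 lost its call without control replicate 2 (0.0679) and without HOXA9 OFF replicate 1 (0.069). Rpl27 lost its call without control replicate 2 (0.0844), without HOXA9 OFF replicate 1 (0.0684) and without HOXA9 OFF replicate 2 (0.0583). The log2 fold changes themselves stayed between -0.88 and -0.51 over these 3 genes and the 4 refits. The median over the 82 members stayed between -0.33 and -0.20.

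Rpl15 and Rps2 had an adjusted p under 0.05 but changed by less than 1.5-fold. Rpl15, a 60S protein, stood at 47.1 and 43.8 CPM in HOXA9 OFF and at 65.4 and 64.03 in control, a log2 fold change of -0.51 ± 0.12 with an adjusted p of 0.0234. Rps2, a 40S protein near the mRNA entry channel, stood at 437 and 407 CPM in HOXA9 OFF and at 543 and 572 in control, with -0.40 ± 0.12 and an adjusted p of 0.044. In both genes the HOXA9 OFF libraries lay below those of both other groups. Rpl10a had a log2 fold change as large as the called members, -0.69 ± 0.23, but an adjusted p of 0.0623. It stood at 31.6 and 40.6 CPM in HOXA9 OFF and at 64.2 and 52.3 in control, and the libraries of each group differed by more than those of the called genes. Its call came and went with the setting. It was called in the DESeq2 Wald test (adjusted p = 0.0231), in the edgeR exact test (0.0227), with no expression filter (0.00119), with library size alone (0.0458), with only the 4 libraries compared (0.0246), with a crossed replicate block (0.0468) and without either CAF-1 OFF library. It was not called with the same-number replicate block (0.0648), with DESeq2 size factors in edgeR (0.0598), at a minimum mean of 5 CPM (0.0589) or without any single HOXA9 OFF or control library (0.0838 to 0.263).

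**Figure D4:**
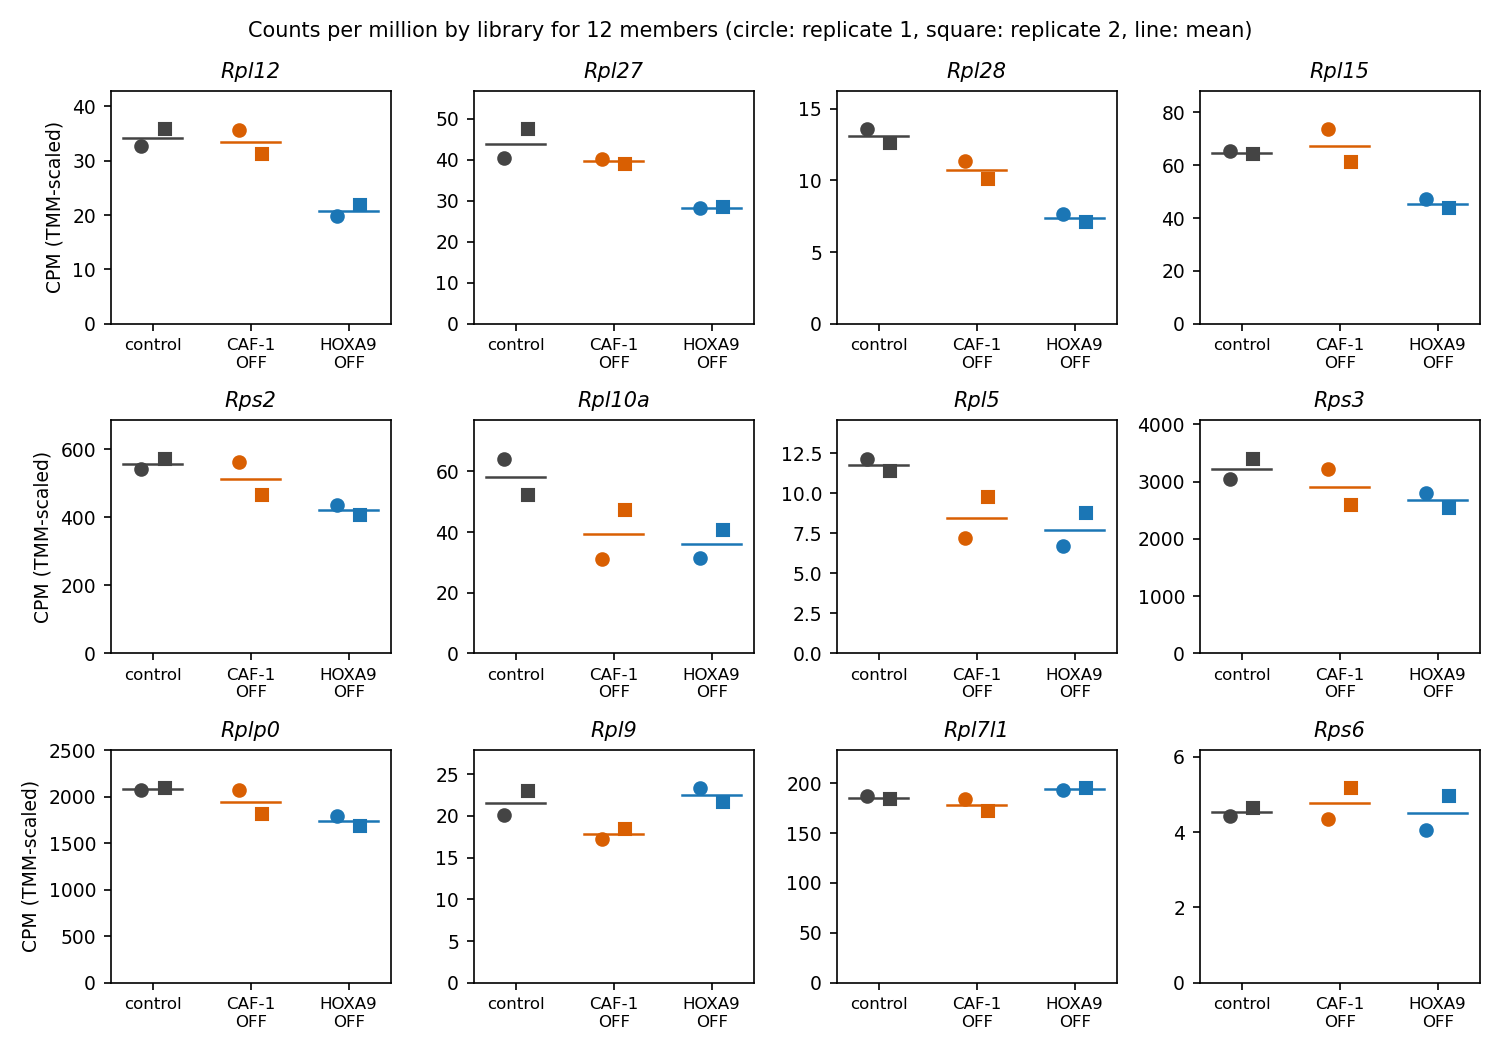
CPM of 12 members in each library (circles replicate 1, squares replicate 2, lines group means; each axis starts at 0). Rpl12, Rpl27, Rpl28, Rpl15 and Rps2 are lower in both HOXA9 OFF libraries than in the 4 others; Rpl10a and Rpl5 are lower in the CAF-1 OFF and HOXA9 OFF libraries than in control; Rpl9, Rpl7l1 and Rps6 have HOXA9 OFF means within a log2 fold change of 0.07 of control.

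Abundant members and those of known roles mostly had lower values that did not pass the test. Rps3, a 40S protein that also takes part in DNA repair, stood at 2795 and 2544 CPM in HOXA9 OFF and at 3046 and 3396 in control (log2 fold change -0.27 ± 0.13, adjusted p = 0.159). Rplp0, the scaffold of the stalk, stood at 1797 and 1686 CPM against 2079 and 2092 (-0.26 ± 0.10, 0.0943). Its stalk partners Rplp1 and Rplp2 had log2 fold changes of -0.20 ± 0.19 and -0.23 ± 0.18, with adjusted p-values of 0.451 and 0.368. None of these 4 passed the test.

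Rpl5 and Rpl11, which bind the 5S ribosomal RNA and can hold MDM2 in check, had log2 fold changes of -0.61 ± 0.24 and -0.34 ± 0.19 and adjusted p-values of 0.0966 and 0.215. Rpl5 stood at 6.71 and 8.73 CPM in HOXA9 OFF and at 12.1 and 11.4 in control. Rps14 stood at 851 and 755 CPM against 938 and 1162 (-0.39 ± 0.17, 0.127). Rpl13a, a 60S protein known for its part in an inhibitory complex of interferon-treated myeloid cells, stood at 1715 and 1541 CPM against 1813 and 2152 (-0.28 ± 0.14, 0.176). Rpsa, also known as the laminin receptor, had -0.32 ± 0.19 (0.265). Rps19 gave one of the smaller values: 274 and 234 CPM against 261 and 286, with overlapping groups and a log2 fold change of -0.11 ± 0.14. Rps6, the phosphorylated target of S6 kinase, stood at 4.05 and 4.97 CPM against 4.44 and 4.64 (-0.01 ± 0.25).

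The 4 members with a fitted level above control in HOXA9 OFF were Rpl3l, Rpl9, Rpl7l1 and Rps16. Rpl9 stood at 23.3 and 21.7 CPM against 20.2 and 22.9 in control, and the groups overlapped. Rpl7l1 stood at 193 and 195 CPM against 187 and 184, above control in both libraries but by a log2 fold change of only 0.06 ± 0.09. Rps16 had 0.01 ± 0.28. Among the members next to these, Rpl31, Rpl36al and Rpl37a had log2 fold changes of -0.02, -0.07 and -0.09. The groups overlapped in Rpl31 and Rpl37a but not in Rpl36al, which stood at 73.1 and 74.0 CPM in HOXA9 OFF and at 75.6 and 79.0 in control. Rpl3l had 40 and 16 counts in HOXA9 OFF against 3 and 15 in control, with 1.65 ± 0.91 and an adjusted p of 0.214. The lowest values of all, -1.17 ± 0.46 in Rps29 and -1.16 ± 0.59 in Rpl23a, also rested on few reads: 8 and 12 counts against 32 and 21 for Rps29, and 7 and 3 against 17 and 9 for Rpl23a.

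CAF-1 depletion at 24 h left the median member closer to control, and its libraries differed from each other. The edgeR test of CAF-1 OFF versus control called 0 of the 82 members, against 0.00803% of all genes lower, 0.0241% higher and 0.0321% in either direction. The same shares held with no minimum fold, where again 0 members passed. None was called by the DESeq2 Wald test (0) or the edgeR exact test (0). At an unadjusted p under 0.05 there were 3 members, all lower (3.66%), against 4.2% of all genes lower and 6.48% higher. The median log2 fold change of the members was -0.07, with 61 (74.4%) below and 21 above control. Over all genes the median was -0.00 and 50.7% were below. Both CAF-1 OFF libraries lay below both controls in 18 members (22.0%) and above them in 1, Rps29. Over all genes these shares were 20% and 20.1%.

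The median hid a split between the libraries. In CAF-1 OFF replicate 1 the median member lay 0.08 above the control mean on the log2 scale, and 26 members were below it. In CAF-1 OFF replicate 2 it lay 0.24 below, and 79 members were below it. Replicate 1 was the higher of the pair in 72 of the 82 members (87.8%), although it was the higher in 49.9% of all genes. The replicates also leaned to a common side in control, where replicate 2 was higher in 63 members, and in HOXA9 OFF, where replicate 1 was higher in 60. The median log2 ratio of replicate 1 to replicate 2 was 0.31 in CAF-1 OFF, -0.09 in control and 0.12 in HOXA9 OFF. Without CAF-1 OFF replicate 1 the median against control was -0.24, and without replicate 2 it was 0.08.

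Among members with a mean of at least 5 CPM, the 5 with the most negative values in CAF-1 OFF ran against this split. Rps27a, which encodes ubiquitin fused to a 40S protein, stood at 4.94 and 8.51 CPM in CAF-1 OFF and at 11 and 9.64 in control (-0.62 ± 0.30). Rpl10a stood at 31.2 and 47.3 CPM against 64.2 and 52.3 (-0.57 ± 0.23). Rpl10, a late-joining 60S protein, stood at 10.6 and 14.1 CPM against 16.7 and 18.2 (-0.50 ± 0.19), and Rpl5 at 7.17 and 9.77 against 12.1 and 11.4 (-0.47 ± 0.24). Rps12 stood at 7.17 and 7.39 CPM against 9.07 and 9.52 (-0.35 ± 0.19). In each of these 5 the lower library was replicate 1, the one in which most members were high. Below 5 CPM, Rps27 had a lower value still, -0.93 ± 0.41. The 3 members with an unadjusted p under 0.05 were Rpl10, Rpl10a and Rpl24, named after their values were seen, with adjusted p-values of 0.431, 0.447 and 0.458. At the other end, Rps20, Rpl23, Rpl21, Rpl15 and Rpl37a had log2 fold changes from 0.05 to 0.08, each within its standard error.

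The direct comparison of CAF-1 OFF with HOXA9 OFF tests whether the groups differ from each other, and not from control. The median member was higher in CAF-1 OFF by 0.16 on the log2 scale, with 73 of 82 members higher, against a median of 0.00 over all genes. Only Rpl12 was called, higher in CAF-1 OFF (1.22% of members, against 9.56% of all genes called higher): its log2 fold change was 0.68 ± 0.14 with an adjusted p of 0.0123. Rpl15 (0.57 ± 0.12, adjusted p = 0.0166) and Rpl27 (0.48 ± 0.13, 0.0287) passed with no minimum fold, against 14.3% of all genes passing as higher, and Rpl28 did not pass (0.53 ± 0.18, 0.0632). The groups did not overlap, with CAF-1 OFF higher, in 24 members (29.3%), against 33% of all genes. At an unadjusted p under 0.05 there were 11 members, all higher, against 20.6% of all genes higher and 42.3% in either direction. The groups did not overlap with CAF-1 OFF lower in 4, among them Rpl7l1 and Rpl9, against 33.7% of all genes. This contrast depended on CAF-1 OFF replicate 1: without it the median was -0.00, and without replicate 2 it was 0.32. The call of Rpl12 was lost without HOXA9 OFF replicate 1 (adjusted p = 0.0804). The comparisons share libraries, so their values are not independent of each other.

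Some paralogues can take the place of a canonical protein in some tissues, but whether each one listed here does so was not tested. Rpl7l1, Rps27l, Rpl22l1 and Rpl36al were all counted at over 60 CPM in every library. Rpl10l and Rpl39l, known from the testis, were listed at 0. Per kilobase of exon, the control level was 0.310 CPM in Rpl3l and 201.2 CPM in Rpl3. Rps27l, a paralogue of Rps27 that p53 can induce, stood at 110 and 123 CPM in HOXA9 OFF, at 133 and 178 in control and at 174 and 138 in CAF-1 OFF (-0.42 ± 0.18 in HOXA9 OFF, adjusted p = 0.121). Rps27 itself had 0.557 to 1.34 CPM, so its ratio to Rps27l rests on few reads. Rpl22l1 and Rpl22 had log2 fold changes of -0.31 ± 0.16 and -0.30 ± 0.16 in HOXA9 OFF and did not pass the test. The log2 ratio of Rpl22l1 to Rpl22 stayed between -2.65 and -2.39 in the 6 libraries. For Rpl7l1 over Rpl7 this ratio was -1.11 and -0.96 in HOXA9 OFF, -1.27 and -1.33 in control, and -1.40 and -1.41 in CAF-1 OFF, so the 3 groups did not overlap. For Rpl36al over Rpl36a it was 3.81 and 3.58 in HOXA9 OFF, above 3.20 and 3.18 in control, and the CAF-1 OFF libraries gave 3.44 and 3.16. These ratios are not corrected for length, and no test was made of them.

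Features that the choice of members did not use separated them little. The 34 tested members with a start run of at least 6 C or T bases had a median log2 fold change of -0.28 in HOXA9 OFF, and the 27 with a shorter run had -0.21. By single-copy share, the median was -0.32 in the 18 members under 25%, -0.20 in the 15 from 25% to under 50%, -0.28 in the 25 from 50% to under 75% and -0.26 in the 23 with 75% or more. The 60S members had a median of -0.25 and the 40S members of -0.28. Exons of 6 members overlapped other gene models by more than 20% of their length: Rpl35 by 66.2% (Wdr38), Rpl23a by 62.3% (Tlcd1 and a small nucleolar RNA), Rpl13a by 41.3%, Rpl31 by 39.5%, Rps25 by 29.1% and Rpl5 by 26.7%. Reads in such overlaps may have been counted to neither gene, since the strand setting and overlap rule of the counting are not given in the sources used here.

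Most other lists of translation genes had lower medians in HOXA9 OFF as well. Their counts stand against 8.97% of all tested genes called lower and 13.8% with an adjusted p under 0.05 and a lower level. Of 75 tested mitochondrial ribosomal protein genes, whose products work in a separate ribosome, 10 (13.3%) were called lower and 0 higher, and 28 (37.3%) had an adjusted p under 0.05, all lower. Their median log2 fold change was -0.33. Mrpl12 had -0.89 ± 0.13 (adjusted p = 0.00404) and Mrps22 -0.80 ± 0.12 (0.00457). Of 23 initiation factors, all 23 had a lower fitted level, 9 (39.1%) with an adjusted p under 0.05, but 0 of these reached 1.5-fold. The median was -0.30. Eif4e, which binds the cap, had -0.58 ± 0.09 (adjusted p = 0.00505), and Eif3g had -0.58 ± 0.11 (0.0105). Of 16 elongation factors and other genes with TOP transcripts, 3 (18.8%) were called, all lower: Npm1, a nucleolar chaperone of ribosome assembly (-0.83 ± 0.10, 0.00215), Nap1l1 (-0.77 ± 0.10, 0.00236) and the elongation factor subunit Eef1g (-0.60 ± 0.12, 0.0131). The median of that list was -0.25, and Eef2, which moves the ribosome along the mRNA, had 0.13 ± 0.09.

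Of 6 tested chaperones of ribosomal proteins, 2 (33.3%) were called lower, Grwd1 (-0.80 ± 0.10, adjusted p = 0.00227) and Tsr2, which escorts RPS26 (-0.63 ± 0.13, 0.0122). Of 5 tested small nucleolar RNA host genes, whose spliced transcripts carry TOP tracts, 4 (80%) were called lower: Snhg1 (-0.75 ± 0.10, 0.0028), Snhg5 (-0.75 ± 0.10, 0.00324), Snhg12 (-0.88 ± 0.17, 0.0104) and Snhg7 (-0.72 ± 0.18, 0.0232). Among 16 regulators of ribosomal protein synthesis, 3 were called lower and 1 higher (13% of all genes were called higher). The median of this list was -0.03, with 7 genes above and 9 below control. Myc stood at 306 and 296 CPM in HOXA9 OFF and at 582 and 550 in control (-0.91 ± 0.09, 0.00139). Eif4ebp1, a translational repressor under mTOR, had -0.84 ± 0.15 (0.00876), the MYC antagonist Mxd1 had 0.63 ± 0.11 (0.00837), and Mycn, at or under 1.05 CPM in both groups, had an adjusted p of 0.0433. Larp1 (-0.22 ± 0.09) and Mtor (-0.04 ± 0.21) were not called. Of 3 genes tied to p53, only its target Cdkn1a was called (-0.84 ± 0.25, 0.0472). Mdm2 had a higher level in HOXA9 OFF (0.34 ± 0.12, 0.0737), and Trp53 had -0.14 ± 0.16 (0.539). Of 3 ribosomal protein genes that the symbol rule leaves out, 0 were called; Fau had a log2 fold change of -0.32 and Gnb2l1 of -0.31. Of 41 tested pseudogene symbols, 0 were called in edgeR. At an unadjusted p under 0.05 there were 3, all lower (7.32%), against 20.2% of all genes lower and 41.9% in either direction.

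In CAF-1 OFF against control, edgeR called 0 genes of any of these lists, where it called 0.0321% of all genes. All 5 small nucleolar RNA hosts nonetheless had both CAF-1 OFF libraries below both controls, against 20% of all genes, and 3 of the 5 were lower at an unadjusted p under 0.05, against 4.2% of all genes. The medians were -0.05 for mitochondrial ribosomal proteins, -0.07 for initiation factors, -0.06 for the TOP list, -0.20 for the chaperones and -0.30 for the small nucleolar RNA hosts. Myc stood at 532 and 506 CPM in CAF-1 OFF, above both HOXA9 OFF libraries (log2 fold change between the groups 0.79 ± 0.09, adjusted p = 0.00226).

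**Figure D5:**
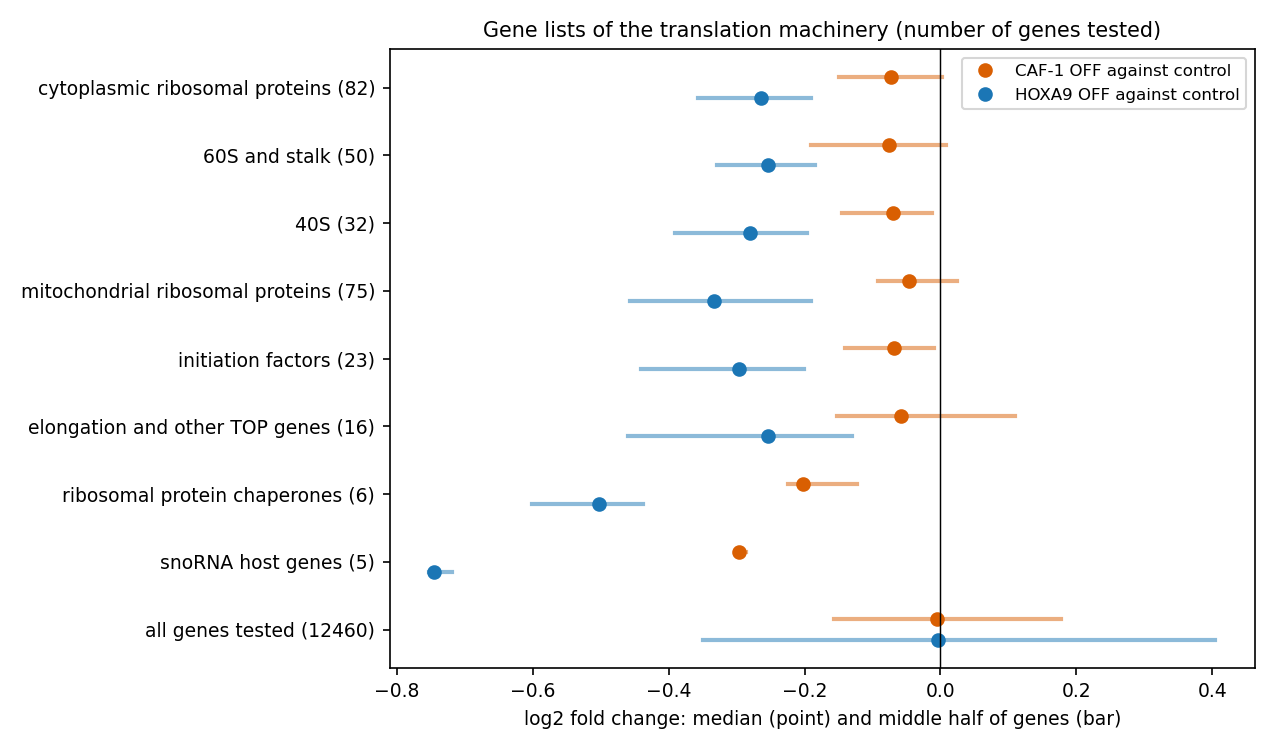
Median log2 fold change (point) and quartiles (bar) for lists of the translation machinery, with the number of genes tested in brackets, in CAF-1 OFF and HOXA9 OFF against control. In HOXA9 OFF the medians run from -0.25 to -0.75 against -0.00 over all genes, and in CAF-1 OFF from -0.05 to -0.30.

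Differentiation markers differed between the groups. The counts called in HOXA9 OFF against control stand beside 13% of all tested genes called higher and 8.97% called lower. Of 8 neutrophil markers, 7 were called higher, and their summed level was 827 and 463 CPM in HOXA9 OFF and 109 and 99.7 CPM in control. Of 7 monocyte and macrophage markers, 5 were called higher and 1 lower (summed 641 and 770 CPM against 433 and 587). Of 6 mast cell, basophil and eosinophil markers, 5 were tested and 2 were called higher (summed 5394 and 3997 CPM against 1134 and 747). Most of this sum was Prg2, with 102115 and 58721 counts against 23744 and 10033. Epx had 4865 and 2262 counts against 124 and 33, and Cpa3 had 4235 and 4557 against 4028 and 2208. Mcpt8 had 518 and 362 counts against 886 and 562, and Prss34 had 68 and 23 against 98 and 32. Of 9 erythroid and megakaryocyte markers, 6 were tested and 2 called higher (summed 82.9 and 88.0 CPM against 30.8 and 33.3). Of 6 lymphoid markers, 3 were tested and 2 called lower (summed 5.79 and 7.40 CPM against 95.6 and 103.5). Of 4 stromal and endothelial markers, 2 were tested and 1 called higher (summed 420 and 444 CPM against 242 and 236). Nearly all of this sum was Pecam1, with 8695 and 7313 counts against 6145 and 4057. Col1a1 had 6 and 3 counts against 3 and 5, Col1a2 had 8 and 12 against 16 and 10, and Cdh5 had 0 in both groups. Of the 8 progenitor markers, 1 was called higher and 4 lower, and they summed to 15100 and 11900 CPM against 14610 and 11520.

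In CAF-1 OFF, 0 markers of any list were called by edgeR, against 0.0321% of all genes, but most sums were above control. The neutrophil markers summed to 432 and 695 CPM, mostly Mmp8. The erythroid and megakaryocyte markers summed to 84.9 and 40.9 CPM, and the mast cell, basophil and eosinophil markers to 1729 and 1207. The lymphoid markers summed to 128.5 and 119.4 CPM and the progenitor markers to 17330 and 15670. The stromal and endothelial markers, nearly all Pecam1, summed to 286.5 and 309.3 CPM. Each of these sums was above both controls. The monocyte and macrophage markers summed to 661 and 572 CPM and overlapped control. The part of these markers in the ribosomal protein results was not tested.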

How the data were processed

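Bulk RNA-seq of mouse iGMPs at 24 h was analysed, with 2 libraries in each of CAF-1 OFF, control and HOXA9 OFF. The deposited files hold whole-number counts per gene symbol, which the authors made by aligning stranded reads to mm9 with STAR and counting them with HTSeq; annotation and strand setting are not given in the sources used here. Rows that name no gene (tallies of unassigned reads) were kept out of library sizes and tests; reads in no annotated feature numbered 5.95 to 8.26 and ambiguous reads 3.00 to 3.28 per 100 gene reads. Genes were filtered with filterByExpr, scaled by TMM and fitted with edgeR 4.0.16 quasi-likelihood tests in R 4.3.3 over all 6 libraries, with no covariate, and p-values were adjusted by Benjamini-Hochberg over all 12460 genes. The fit was also run on simulated counts with known changes, and the outcome is not reported here. Alternatives were DESeq2, the edgeR exact test, other scalings, filters and thresholds, a replicate block and leaving out each library. The members and lists were chosen with earlier results of these data known.

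The named members were, against control, the 5 most positive and 5 most negative with a mean of at least 5 CPM, up to 15 called members in each comparison, members of known role and paralogue pairs. From each other list up to 5 called genes were named. Rpl4, Rpl8, Rpl19, Rpl23a, Rpl24, Rpl29, Rpl35, Rps2, Rps3, Rps13, Rps16, Rps25, Rps29, Fau, Gnb2l1, Eif4e, Eef2, Pdcd2, Snhg3, Larp1, Mtor, Flt3 and Mmp8 were named after their values were seen. The same holds for Mdm2, Trp53, Cd34, Ms4a3, Prg2, Epx, Cpa3, Mcpt8, Prss34, Pecam1, Col1a1, Col1a2 and Cdh5. Exact copies of 50-base stretches were counted on NCBIM37 with GENCODE vM1 gene models. Replicates of a group differed by more than counting noise in all 3 groups (chi-square per degree of freedom 21.4 to 28.9). Single values of a few genes are not reported here.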

Additional observations from a re-analysis of the deposited data

Results flagged for a closer look

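Reads in no annotated feature, a tally outside the gene counts, were more frequent in HOXA9 OFF: 7.84 and 8.26 per 100 gene reads (mean 8.05 ± 0.30, SD, n = 2), above both controls at 6.87 and 7.15 (mean 7.01 ± 0.20). CAF-1 OFF gave 5.95 and 7.30. With 2 libraries against 2 an exact permutation test cannot go below p = 0.333. The part of this tally in the ribosomal protein values was not tested.

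Rpl12 differed between CAF-1 OFF and HOXA9 OFF in the direct test. Its log2 fold change in CAF-1 OFF against HOXA9 OFF was 0.68 ± 0.14 with an edgeR adjusted p of 0.0123, and it was the only called member of 82.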

How the results depend on the processing

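Over the 51 results for single named members and 660 alternative values of them, 640 kept their direction and their side of the call. A direction was counted as turned only if the first value exceeded its standard error, and no direction turned. Another 10 values lost a call and 10 gained one. Most of the results were not called in the first fit, so they had no call to lose. All 10 losses were of the calls of Rpl12, Rpl27 and Rpl28, with 13 alternatives for each call. No member was called in CAF-1 OFF against control in any of the settings tried. In HOXA9 OFF against control, where 3 members were called, the count was 5 with library size alone (which moved the median of all genes by -0.08), 5 at FDR under 0.05 with no fold minimum, and 0 at 2-fold and FDR under 0.01. Leaving out each HOXA9 OFF or control library gave 0 to 2 called members, and leaving out either CAF-1 OFF library gave 4. Without each of the 4 compared libraries the results were a median log2 fold change of -0.33 to -0.20, and a log2 share ratio of -0.40 to -0.27. In CAF-1 OFF against HOXA9 OFF, where 1 was called, the count was 3 with library size alone, 2 in the edgeR exact test, 3 with no fold minimum and 0 at the stricter threshold; leaving out each library gave 0 to 3. The median log2 fold change there ran from -0.00213 (without CAF-1 OFF replicate 1) to 0.32. In CAF-1 OFF against control the leave-one-out medians ran from -0.236 to 0.0765, the share ratios from -0.249 to 0.0343 and the counts from 0 to 0. The causes were not tested. The labels do not say whether the replicate numbers pair the samples. Over all genes, the deviations of same-numbered libraries correlated at -0.18 (CAF-1 OFF and control), 0.46 (HOXA9 OFF and control) and 0.03 (CAF-1 OFF and HOXA9 OFF). Over the members these correlations were -0.51, -0.42 and 0.63. With the replicate block the counts were 0, 3 and 1, as without it. A crossed pairing of the CAF-1 OFF libraries, added after seeing the data, gave 0, 4 and 1. Over all genes, calls in CAF-1 OFF against control numbered 4 in the fit described, 192 with DESeq2, 243 in the exact test, 378 with no filter, 9 with only the 4 libraries compared, 2 with the block and 71 with the crossed pairing. In HOXA9 OFF against control, the median standard error was 0.30 in the members under 10 CPM and 0.15 over all tested members.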
